A study of Mus musculus with 4 samples.

Results

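The genes described here are 45 genes of the G1/S transition and of DNA replication, taken by name from a fixed list out of 41388 genes listed in the count tables. All 45 were found and all 45 passed the filter on low counts, with between 425 reads (Orc1) and 24151 reads (Rpa1) in a library. The RNA came from Mnk3, a murine line with features of group 3 innate lymphoid cells, which are lymphocytes of barrier tissues. Untreated cells gave 2 libraries (control 1 and control 2), and another 2 (stimulated 1 and stimulated 2) came from cells exposed for about 16 h to the cytokines IL-1b and IL-23, each at a dose of 10 ng/ml. All 4 come from the same line, and no other agent or allele is labelled. Separate cultures are not stated for any group, so each p-value reflects variation among these libraries alone, which could be technical.

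A cell that prepares to divide first licenses its replication origins: the origin recognition complex, CDC6 and CDT1 load the ring of MCM2 to MCM7 onto DNA. CDC45 and the GINS complex then turn the ring into an active helicase, and polymerases, the PCNA clamp and its loader, and DNA ligase copy both strands. Many genes of this machinery are known targets of E2F transcription factors, which are released from pocket proteins when cyclin-dependent kinases become active, and lymphocytes that leave rest are known to raise them together.

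The files gave summed gene counts from 23047723 to 29078765 per library. Of the 10 ILC3 markers, all had at least 10 reads in every library, and their summed level lay between 5568 and 5668 CPM in controls and between 2022 and 2231 CPM in stimulated cells. Markers of other lineages were low: B cell, myeloid, stromal, erythroid and epithelial lists each summed to under 10 CPM in every library, with Lyz2, Cd14, Hba-a2, Hbb-bs and Hbb-bt at 0 reads throughout. The 9 T cell markers summed to between 274 and 315 CPM in controls and between 58.8 and 74.9 CPM in stimulated cells, with Cd8b1 at 0. The part of these markers in the results below was not tested. In such bulk samples, fewer cells of a kind and less RNA per cell cannot be told apart.

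The promoters of the helicase ring genes are shown first, because 4 of the 6 ring genes fell and because the letters that E2F factors are known to bind stand out in some of them and not in others. Sequences are from RefSeq (build GRCm38.p6), 250 bases up to the transcription start, 5′ to 3′ on the strand of the gene, for the 5 ring genes with a listed start whose window holds no annotated exon. For Mcm7 this is the second of 2 listed starts, and its window lies inside the listed span of the gene. Capitals mark any of 4 E2F core words on either strand, which are TTCCCGC, then TTCGCGC, also TTGCCGC and lastly TTGGCGC.
Mcm6: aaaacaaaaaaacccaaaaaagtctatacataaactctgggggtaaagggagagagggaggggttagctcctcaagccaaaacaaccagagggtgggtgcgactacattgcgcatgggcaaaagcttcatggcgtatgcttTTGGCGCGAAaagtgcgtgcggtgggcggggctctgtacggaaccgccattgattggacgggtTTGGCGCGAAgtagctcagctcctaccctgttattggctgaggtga
Mcm7: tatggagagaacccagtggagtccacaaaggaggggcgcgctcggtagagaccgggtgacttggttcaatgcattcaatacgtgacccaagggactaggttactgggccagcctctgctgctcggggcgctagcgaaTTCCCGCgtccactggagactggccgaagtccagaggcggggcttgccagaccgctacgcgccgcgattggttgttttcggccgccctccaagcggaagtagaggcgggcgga
Mcm5: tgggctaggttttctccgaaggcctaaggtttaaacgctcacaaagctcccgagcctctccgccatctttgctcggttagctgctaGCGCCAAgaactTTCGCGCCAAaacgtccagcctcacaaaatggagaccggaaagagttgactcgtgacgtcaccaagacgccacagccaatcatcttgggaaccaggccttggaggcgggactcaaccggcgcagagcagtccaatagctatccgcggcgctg
Mcm3: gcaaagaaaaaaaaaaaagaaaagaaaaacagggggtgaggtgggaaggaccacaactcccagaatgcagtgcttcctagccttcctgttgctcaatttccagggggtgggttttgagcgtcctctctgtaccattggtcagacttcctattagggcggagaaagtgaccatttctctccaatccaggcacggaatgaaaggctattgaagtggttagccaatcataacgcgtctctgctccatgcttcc
Mcm2: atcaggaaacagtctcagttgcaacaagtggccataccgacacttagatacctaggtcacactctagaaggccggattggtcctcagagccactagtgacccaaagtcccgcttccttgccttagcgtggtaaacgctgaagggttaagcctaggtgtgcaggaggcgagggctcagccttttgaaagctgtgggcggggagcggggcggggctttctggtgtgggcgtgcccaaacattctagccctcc
The Mcm6 window is chr1:128359706-128359955 on the minus strand, that of Mcm7 is chr5:138171267-138171516 on the minus strand, that of Mcm5 is chr8:75109259-75109508 on the plus strand, that of Mcm3 is chr1:20820313-20820562 on the minus strand and that of Mcm2 is chr6:88898781-88899030 on the minus strand. In Mcm6, TTGGCGC on 1 strand overlaps TTCGCGC on the other at 2 places, starting 109 and 46 bases before the start of transcription, and TTCGCGC recurs 25 bases after it. In Mcm7 a single TTCCCGC starts 113 bases before the second start. The first start, whose window holds annotated exons and is not shown, has TTCCCGC 165 bases before it. TTCGCGC and TTGGCGC stand at bases 18 and 21 after that first start. In Mcm5 such an overlapping pair and a single TTGGCGC lie together. Mcm3 and Mcm2 hold none of the words before the start, and Mcm3 holds TTCCCGC at base 20 and TTGGCGC at bases 40 and 43 after it.

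Promoters from 250 bases before to 50 bases after a start were in the RefSeq table for 37 of the 45 members; Mcm4, Gins1, Gins2, Gins4, Rfc2, Prim2, Pole and Ccne2 had no entry. Of these 37 genes, 26 (70.3%) held at least 1 of the 4 E2F words on either strand in at least 1 listed start, against 19.5% of the 9940 tested genes with a promoter and 10.9% of all 27025 genes in the table. TTCCCGC was the commonest, in 16 members (43.2%, against 9.87% of tested genes). CCAAT, the word of the factor NF-Y, was in 23 members (62.2%, against 42.7%). TTTGAA, a word known from promoters of mitosis genes, was in 6 members (16.2%, against 14.5%). Genes of G2 and mitosis had the other pattern: of 25 with a promoter, 19 (76%) held TTTGAA, 22 (88%) held CCAAT and 5 (20%) held an E2F word. E2F words were found in 4 of 6 members that fell, 3 of 5 that rose and 19 of 26 that did not pass. These are matches of letters, not measured binding.

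Stimulation moved the replication genes little and in both directions. Changes are log2 of stimulated over control ± SE from edgeR's quasi-likelihood test across 13838 genes, and a gene rose or fell here if its Benjamini-Hochberg adjusted p was under 0.05. Of the 45 members, 5 rose (Orc6, Rfc3, Rfc4, E2f2 and Ccne1), 7 fell (Mcm2, Mcm4, Mcm6, Mcm7, Rfc1, Lig1 and E2f1) and 33 passed in neither direction. That is 26.7% of the members, where 35.8% of all tested genes passed, and by direction 11.1% rose against 17.5% and 15.6% fell against 18.3%. With total-count scaling 3 members rose and 12 fell, where 1934 of all tested genes rose and 2794 fell. With upper-quartile scaling 4 members rose and 11 fell, where 2160 of all tested genes rose and 2701 fell. The median change of the members was -0.13 and that of all tested genes -0.016. The changes ran from -1.07 to 0.74, and 35 of the 45 were smaller than 0.5 in size, as were 7112 of all 13838 tested genes. The stimulated libraries did not overlap the controls for 34 members, 13 higher and 21 lower, and 70.7% of all tested genes did not overlap either (34.4% higher and 36.3% lower).

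**Figure D1:**
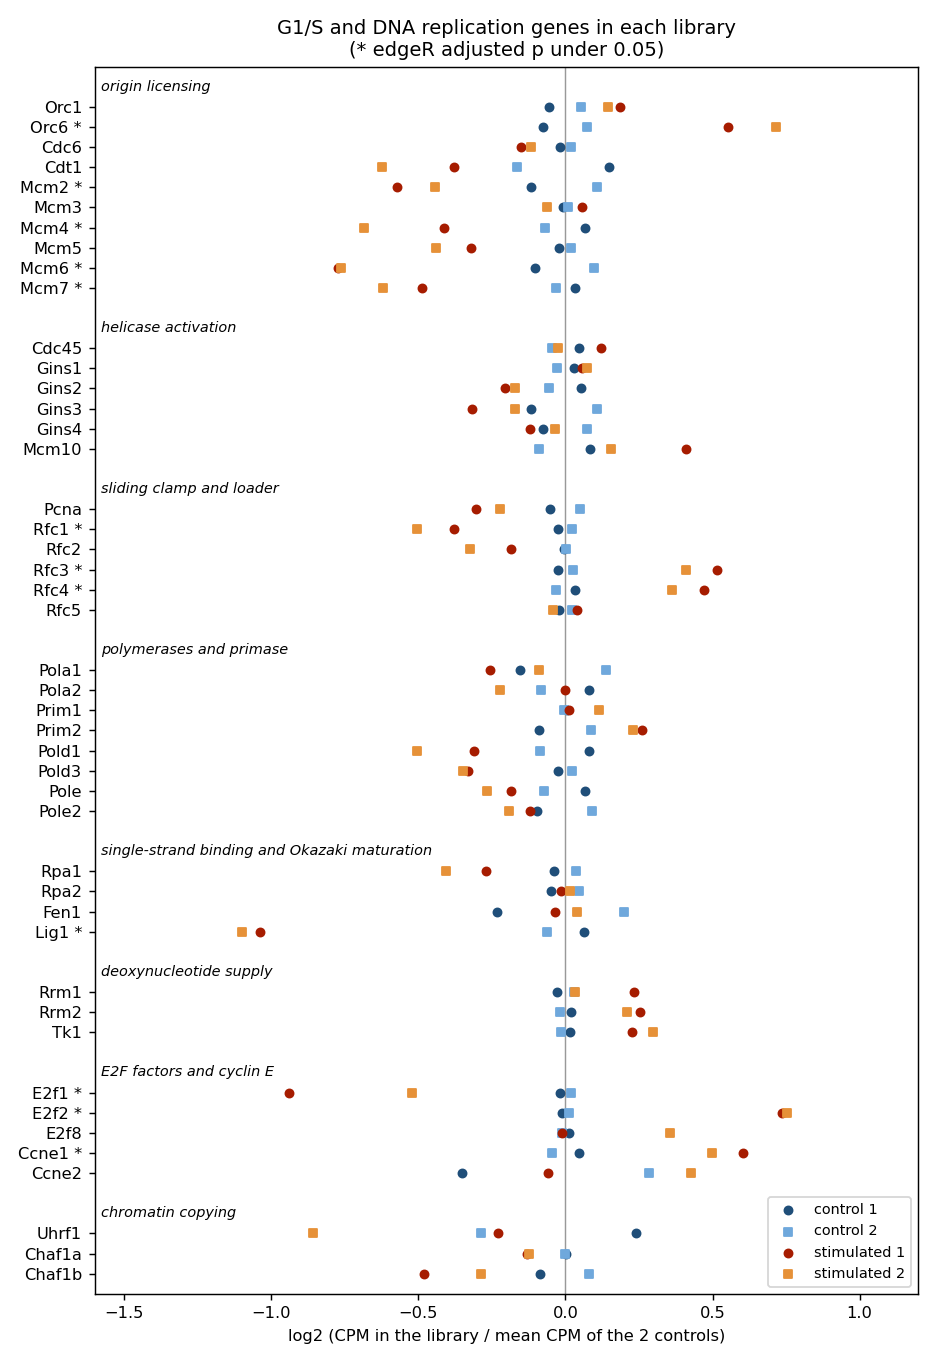
Each point is 1 library's level of a gene as log2 of its CPM over the mean CPM of the 2 controls, for all 45 members grouped by role; circles are the libraries numbered 1, squares those numbered 2, and asterisks mark an edgeR adjusted p under 0.05. Most genes lie within 0.5 of the controls, Lig1 lies lowest near -1.07, and the ring genes other than Mcm3 lie to the left.

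Of the 10 origin licensing genes, which include the 6 helicase ring genes, 4 fell (40%, where 18.3% of all tested genes fell). In the same group 1 rose (10%, where 17.5% of all tested genes rose). All 4 that fell are ring genes, which is 66.7% of the ring. Without stimulated 2 only Mcm6 of the ring passed, with edgeR adjusted p values of 0.0972 for Mcm2, 0.213 for Mcm4 and 0.134 for Mcm7. Mcm6 had 715 and 822 CPM in controls 1 and 2 and 450 and 453 CPM in stimulated 1 and 2. Both stimulated libraries were well below both controls, and the change was -0.77 ± 0.15 (edgeR adjusted p = 0.0091), a fall of 41.3%. Mcm7 had 377 and 360 CPM in controls and 263 and 240 CPM in stimulated cells, a change of -0.55 ± 0.14 (edgeR adjusted p = 0.0222). Mcm4 had 512 and 467 CPM, then 367 and 305 CPM, a change of -0.54 ± 0.16 (edgeR adjusted p = 0.0369). Mcm2 had 530 and 620 CPM, then 387 and 423 CPM, a change of -0.51 ± 0.16 (edgeR adjusted p = 0.0428). The groups did not overlap for any of these 4 genes, nor for 70.7% of all tested genes (36.3% lower). Mcm5 also had both stimulated libraries lower (648 and 596 CPM against 798 and 821 CPM), but at -0.38 ± 0.15 it missed the threshold (edgeR adjusted p = 0.0874), which it passed with upper-quartile (0.0472) or total-count scaling (0.0352). Mcm3 stood apart from the other ring genes with 710 and 718 CPM in controls and 743 and 683 CPM in stimulated cells, groups that overlap, and a change of 0.00 ± 0.15 (edgeR adjusted p = 0.994).

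These ring genes lie on 5 chromosomes in the coordinates of the count tables, Mcm3 and Mcm6 on chromosome 1 (20802968 to 20820312 and 128331590 to 128359664, both on the minus strand), Mcm7 on chromosome 5 (138164583 to 138172422, minus strand) and Mcm2 on chromosome 6 (88883475 to 88898780, minus strand). Mcm5 lies on chromosome 8 (75109528 to 75128439, plus strand) and Mcm4 on chromosome 16 (15623897 to 15637400, minus strand). Exons of Mcm7 share 7.25% of its length with Ap4m1 on the opposite strand, and the sources used here do not say whether counting used strand.

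The 6 ring proteins are known to form the helicase in equal number, but the RPKM of their genes was not equal. The deposited RPKM is per listed gene length, which need not equal the length of the transcripts made. The part of the listed length in the differences between genes was not tested. On this scale, Mcm5 was highest in both controls (242 and 246), followed by Mcm3 (196 and 197). Mcm2 (163 and 189) and Mcm6 (159 and 181) overlapped each other, Mcm4 was lower (148 and 134) and Mcm7 lowest (88.4 and 83.7). The highest was 2.74 and 2.95 times the lowest in the 2 controls and 3.33 and 3.36 times in the stimulated libraries. The summed RPKM of the ring was 997 and 1030 in controls and 719 and 712 after stimulation. RPKM carries no TMM factor, so its differences between groups are not the tested changes. Within that sum, Mcm3 took 19.7% and 19.1% in controls and 26.0% and 25.4% in stimulated libraries, while Mcm6 took 15.9% and 17.6%, then 12.7% and 13.5%. In stimulated cells Mcm3 was the highest of the ring (187 and 181 RPKM), with Mcm5 next at 179 and 173 RPKM.

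**Figure D2:**
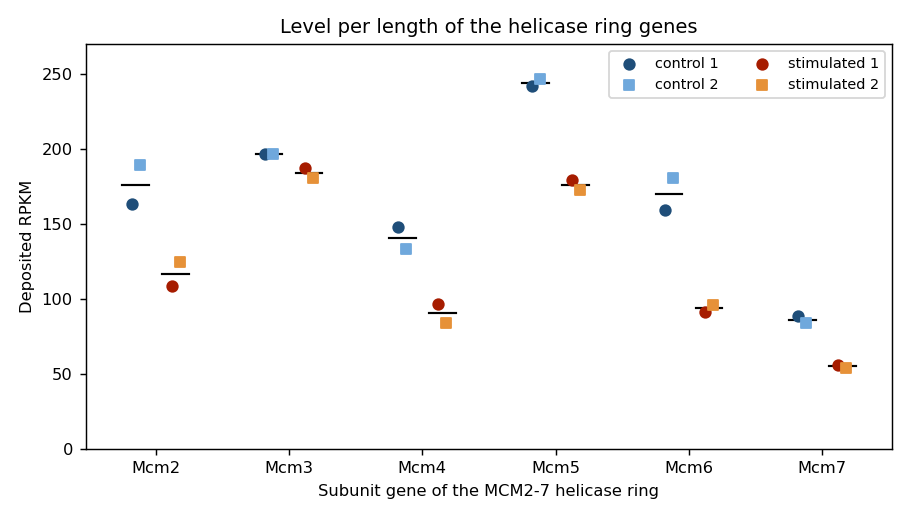
Deposited RPKM (vertical axis, from 0) of the 6 ring genes in each library, with a bar at the mean of each pair of libraries. Mcm5 goes from 244 to 176 and Mcm6 from 170 to 93.7, while Mcm3 goes from 196 to 184. RPKM carries no TMM factor, so these differences are not the tested changes.

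The genes that load the ring had mixed changes. Orc6, which encodes the smallest subunit of the origin recognition complex, rose from 77.0 and 85.3 CPM to 119 and 133 CPM (0.64 ± 0.14, edgeR adjusted p = 0.0132). Its listed span is 85299632 to 85308278 on chromosome 8, plus strand. Orc1, the largest subunit and the least abundant member at 4.82 and 5.15 RPKM in controls, had 0.17 ± 0.16. Cdc6 had 144 and 148 CPM, then 131 and 134 CPM (-0.13 ± 0.13). Cdt1, which brings the ring to the origin, had 222 and 178 CPM in controls and 154 and 130 CPM after stimulation. Its groups did not overlap, nor did those of 70.7% of all tested genes. The change of -0.50 ± 0.17 missed the threshold (edgeR adjusted p = 0.0578). Cdt1 passed in DESeq2 (adjusted p = 0.0486). In edgeR it passed with total-count (adjusted p = 0.0363) or upper-quartile scaling (0.0462) or without the low-count filter (0.0152). With 1 library left out its change ran from -0.65 (without control 2) to -0.33 (without control 1).

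None of the 6 helicase activation genes passed. Cdc45, the partner that completes the active helicase, had 234 and 219 CPM in controls and 246 and 222 CPM in stimulated cells, overlapping groups (0.05 ± 0.14, edgeR adjusted p = 0.815). The 4 GINS genes had changes from -0.24 (Gins3) to 0.07 (Gins1). Mcm10, which helps to start unwinding, had the largest value of this group at 0.29 ± 0.15 (edgeR adjusted p = 0.191). Gins2 shares 67.3% of its exon length with Gse1 on the opposite strand, so its counts are uncertain.

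The clamp loader, a complex of RFC1 with 4 small subunits, had changes in both directions, with 3 genes that passed close to the threshold. Rfc1, the large subunit gene, fell from 234 and 242 CPM to 183 and 168 CPM (-0.44 ± 0.14, edgeR adjusted p = 0.0435). Rfc3 rose from 108 and 112 CPM to 157 and 146 CPM (0.46 ± 0.13, edgeR adjusted p = 0.0321). Rfc4 rose from 51.3 and 49.0 CPM to 69.5 and 64.5 CPM (0.42 ± 0.13, edgeR adjusted p = 0.0497). The libraries of each group differed little and the groups of these 3 genes did not overlap, nor did those of 70.7% of all tested genes. Each call depended on the scaling. With total-count scaling Rfc3 and Rfc4 missed the threshold (edgeR adjusted p = 0.0528 and 0.089), and with DESeq2 size factors Rfc1 missed it (0.055). Rfc2 (-0.25 ± 0.13) and Rfc5 (0.00 ± 0.13) did not pass. Pcna, the clamp itself, had 323 and 347 CPM, then 271 and 287 CPM, and at -0.26 ± 0.14 did not pass (edgeR adjusted p = 0.184). Rfc1 lies on chromosome 5 from 65261852 to 65335670, Rfc3 on chromosome 5 from 151642756 to 151651242 and Rfc4 on chromosome 16 from 23113943 to 23127737, all on the minus strand. Rfc4 shares 12.6% of its exon length with Eif4a2 on the opposite strand.

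Of the 8 polymerase and primase genes none passed. The lowest values were those of the polymerase delta genes Pold1 (350 and 311 CPM, then 267 and 233 CPM, -0.40 ± 0.15, edgeR adjusted p = 0.0771) and Pold3 (106 and 110 CPM, then 85.8 and 84.8 CPM, -0.34 ± 0.13, edgeR adjusted p = 0.0787). The stimulated libraries lay below both controls for both genes, as for 36.3% of all tested genes. Both passed with upper-quartile (edgeR adjusted p = 0.0496 for Pold1 and 0.0453 for Pold3) or total-count scaling (0.0365 and 0.0351). The polymerase epsilon genes Pole and Pole2 had -0.23 ± 0.14 and -0.15 ± 0.14. The polymerase alpha genes Pola1 and Pola2 had -0.17 ± 0.16 and -0.11 ± 0.15, and their primase partners Prim1 and Prim2 had 0.06 ± 0.13 and 0.24 ± 0.14.

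The steepest change of any member was that of Lig1, the ligase that seals Okazaki fragments. It had 261 and 239 CPM in controls and 122 and 117 CPM in stimulated cells. Both stimulated libraries lay below both controls, as for 36.3% of all tested genes, here by a wide margin. The level fell by 52.3% (-1.07 ± 0.14, edgeR adjusted p = 0.00186). Lig1 spans 13277283 to 13311433 of chromosome 7 (plus strand) and shares 5.79% of its exon length with Zswim9 on the opposite strand. Fen1, the nuclease that trims the fragments before ligation, had 0.00 ± 0.19 from 20.7 and 27.9 CPM to 23.7 and 24.9 CPM. Its counts are uncertain, because 78.8% of its exon length overlaps Gm10143 on the opposite strand. The single-strand binding genes Rpa1 (-0.34 ± 0.15) and Rpa2 (0.00 ± 0.13) did not pass, though Rpa1 did with total-count scaling (edgeR adjusted p = 0.0491).

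None of the 3 members that supply deoxynucleotides passed. Rrm1 and Rrm2, the subunits of ribonucleotide reductase, had 0.14 ± 0.15 and 0.23 ± 0.14. Tk1, thymidine kinase, had 139 and 136 CPM in controls and 161 and 169 CPM after stimulation (0.26 ± 0.13, edgeR adjusted p = 0.161). For all 3 genes both stimulated libraries lay above both controls, as for 34.4% of all tested genes, and for Rrm1 the gap was small (616 CPM in stimulated 2 against 614 CPM in control 2).

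Among E2F factors, E2f1 and E2f2, both known activators of replication genes, moved in opposite directions. E2f1 fell from 95.0 and 97.4 CPM to 50.1 and 67.1 CPM (-0.72 ± 0.17, edgeR adjusted p = 0.0182), with the stimulated libraries further apart than the controls. E2f2 rose from 70.5 and 71.7 CPM to 118 and 120 CPM (0.74 ± 0.13, edgeR adjusted p = 0.0053), with close libraries in both groups. The repressor gene E2f8 had 64.2 and 63.1 CPM, then 63.2 and 81.4 CPM, groups that overlap (0.18 ± 0.16). Ccne1, cyclin E1, which drives entry into S phase, rose from 59.6 and 55.9 CPM to 87.9 and 81.6 CPM (0.55 ± 0.13, edgeR adjusted p = 0.0191). Its relative Ccne2 followed the library number more than the treatment, with 82.5 and 101 CPM in the libraries numbered 1 and 128 and 141 CPM in those numbered 2 (0.20 ± 0.26). E2f1 lies on chromosome 2 from 154559407 to 154569892 on the minus strand, E2f2 at 136172394 to 136196057 of chromosome 4 (plus strand) and Ccne1 on chromosome 7 from 38097984 to 38107534 on the minus strand.

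The genes that copy chromatin marks and place histones did not pass. Uhrf1, which recruits the maintenance DNA methyltransferase, had 731 and 507 CPM in controls and 527 and 341 CPM in stimulated cells, so the groups overlapped and the libraries numbered 1 were higher (-0.51 ± 0.27, edgeR adjusted p = 0.188). Uhrf1 passed without the low-count filter (edgeR adjusted p = 0.0184). With 1 library left out its change ran from -0.86 (without stimulated 1) to -0.20 (without stimulated 2). Chaf1b, a subunit of the histone chaperone CAF-1, had -0.38 ± 0.15 (edgeR adjusted p = 0.0824) and its partner Chaf1a had -0.13 ± 0.13.

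The calls of Lig1, Mcm6 and E2f2 held when any 1 of the 4 libraries was left out, and those of the other 9 genes ended for at least 1 library, while all 12 kept their direction. The members that rose numbered 2 whichever library was left out, and those that fell numbered 4 without control 1, 6 without control 2, 4 without stimulated 1 and 3 without stimulated 2. Mcm2 ended without control 2 (edgeR adjusted p = 0.188), stimulated 1 (0.189) or stimulated 2 (0.0972), Mcm4 without control 1 (0.115) or stimulated 2 (0.213), and Mcm7 without control 1 (0.0688), stimulated 1 (0.0632) or stimulated 2 (0.134). E2f1 ended without stimulated 1 (0.0926), Ccne1 without control 2 (0.0818) or stimulated 1 (0.107), and Orc6 without control 1 (0.0558) or stimulated 2 (0.0536). The clamp loader calls were the weakest: Rfc1, Rfc3 and Rfc4 ended whichever library was left out. With total-count scaling, where the median of all genes was -0.11, Rfc3 (0.0528) and Rfc4 (0.089) also missed the threshold. Rfc1 missed it with DESeq2 size factors (0.055), and Rfc4 with upper-quartile scaling (0.0681), in limma-voom (0.0515) and without robust estimation (0.0503).

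Ratios between members within 1 library do not depend on how libraries are scaled to each other. The pairs below were chosen after the values were seen, and with 2 libraries a group the smallest 2-sided p of an exact permutation test is 0.333, so they are given as values. The RPKM ratio of E2f1 to E2f2 was 2.09 and 2.10 in controls and 0.655 and 0.866 in stimulated libraries, so the order of the pair turned. Mcm6 over Mcm3 went from 0.810 and 0.920 to 0.487 and 0.532. Rfc1 over Rfc3 went from 1.30 and 1.30 to 0.701 and 0.691, and Rfc1 over Rfc4 from 1.17 and 1.26 to 0.674 and 0.665. Lig1 over Pcna went from 0.453 and 0.387 to 0.252 and 0.228. In these 5 pairs both stimulated libraries lay below both controls. The ribonucleotide reductase pair Rrm1 over Rrm2 had 1.08 and 1.15 in controls and 1.10 and 0.988 in stimulated libraries, values that overlap. Ccne1 over Ccne2 overlapped too, with 0.949 and 0.574 in controls and 1.14 and 0.758 in stimulated libraries.

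**Figure D3:**
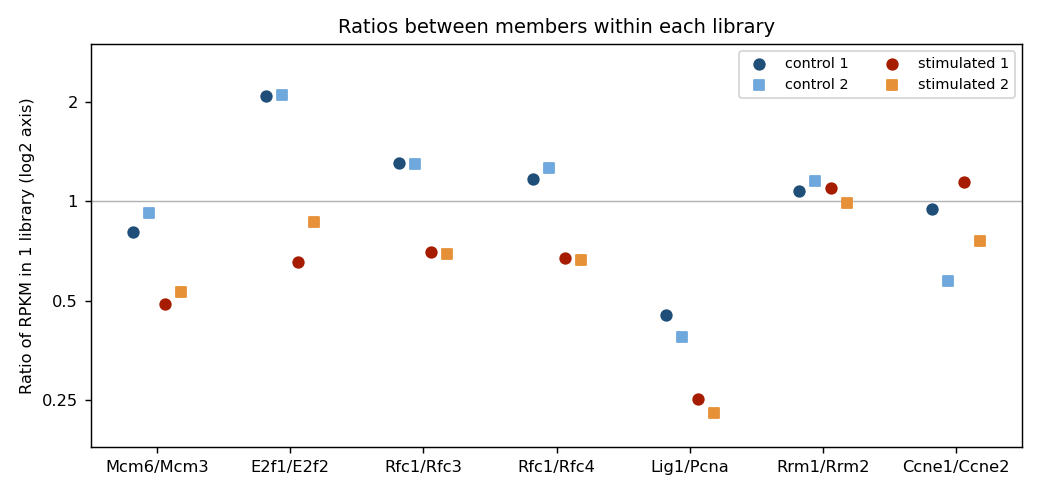
Ratio of deposited RPKM of 2 genes within each library (vertical log2 axis), 1 point per library, for 7 pairs of members. For E2f1 over E2f2 the controls lie at 2.09 and 2.10 and the stimulated libraries at 0.655 and 0.866, and for Rrm1 over Rrm2 and Ccne1 over Ccne2 the groups overlap.

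The rest of the replication pathway was read from a fixed list of 75 further genes, of which 74 were tested. Of these, 19 rose (25.7%, against 17.5% of all tested genes), 4 fell (5.41%, against 18.3%) and 51 did not pass, with a median of 0.14. With total-count scaling 1934 of all tested genes rose and 2794 fell, and of this list 10 rose and 5 fell. Without control 1, control 2, stimulated 1 or stimulated 2 the rises numbered 12, 10, 7 and 11, and without stimulated 2 the falls numbered 2. The other genes of deoxynucleotide metabolism accounted for 7 of the rises, out of 10 tested, with a median of 0.81. Nme1, a nucleoside diphosphate kinase, rose from 37.8 and 41.3 CPM to 148 and 171 CPM (2.01 ± 0.15, edgeR adjusted p = 0.000333). Samhd1, which breaks deoxynucleotides down, rose from 59.3 and 59.4 CPM to 152 and 148 CPM (1.34 ± 0.13, edgeR adjusted p = 0.000738). Shmt1, a folate enzyme that serves thymidylate synthesis, rose from 22.0 and 25.3 CPM to 52.1 and 51.7 CPM (1.13 ± 0.15, edgeR adjusted p = 0.00196). The other 4, named after their values were seen, were Dctpp1 (1.34 ± 0.18), Tyms (0.98 ± 0.14), Cmpk1 (0.63 ± 0.16) and Dut (0.53 ± 0.15). Not all enzymes of the group rose: Dck, deoxycytidine kinase, had -0.01 ± 0.14.

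Partners of E2F were among the genes that fell most in the list. Tfdp2, a dimerization partner of E2F factors, fell from 120 and 140 CPM to 48.3 and 55.2 CPM (-1.33 ± 0.15, edgeR adjusted p = 0.00127). Rbl2, the pocket protein p130 that is known to hold E2F targets silent in resting cells, fell from 464 and 479 CPM to 264 and 251 CPM (-0.88 ± 0.14, edgeR adjusted p = 0.00393). Their relatives Tfdp1 (0.30 ± 0.14) and Rbl1 (-0.09 ± 0.14) did not pass. Cks1b, a subunit of cyclin-dependent kinases, rose by 0.75 ± 0.18 (edgeR adjusted p = 0.0181). Of the 17 tested genes of this group 4 rose (23.5%, against 17.5% of all tested genes) and 2 fell (11.8%, against 18.3%). The other rises, named after their values were seen, were E2f5 (0.83), E2f4 (0.48) and Ccna2 (0.47).

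Of the 18 other licensing and firing genes, 2 rose (11.1%, against 17.5% of all tested genes) and 1 fell (5.56%, against 18.3%). Mtbp, a partner of the origin firing factor Treslin, rose from 62.9 and 63.8 CPM to 106 and 104 CPM (0.73 ± 0.13, edgeR adjusted p = 0.00579). Orc2 rose by 0.48 ± 0.13 and Orc5 fell, with a change of -0.58 ± 0.17 (edgeR adjusted p = 0.0384), so within the origin recognition complex the subunit genes Orc2, Orc5 and Orc6 moved in both directions. Topbp1 (-0.38 ± 0.14) and Rif1 (0.13 ± 0.17) did not pass. Of the 19 tested fork and polymerase genes, 4 rose (21.1%, against 17.5%) and 1 fell (5.26%, against 18.3%). Timeless, of the fork protection complex, fell from 309 and 281 CPM to 198 and 174 CPM (-0.66 ± 0.15, edgeR adjusted p = 0.0135). Top1, which relieves the twist ahead of the fork, rose by 0.61 ± 0.14 (edgeR adjusted p = 0.0152) and the nuclease gene Dna2 by 0.72 ± 0.19 (edgeR adjusted p = 0.0233), as did, named after their values were seen, Pold2 (0.67) and Tipin (0.46), while Wdhd1 (0.08 ± 0.15) and Chtf8 (0.13 ± 0.14) did not pass. Among 10 other chromatin copying genes 2 rose (20%, against 17.5%), Nasp (0.50 ± 0.15) and Rbbp7 (0.46 ± 0.15), both histone chaperones. Dnmt1, the maintenance DNA methyltransferase, had -0.36 ± 0.15 (edgeR adjusted p = 0.115) and Hells -0.31 ± 0.19.

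**Figure D4:**
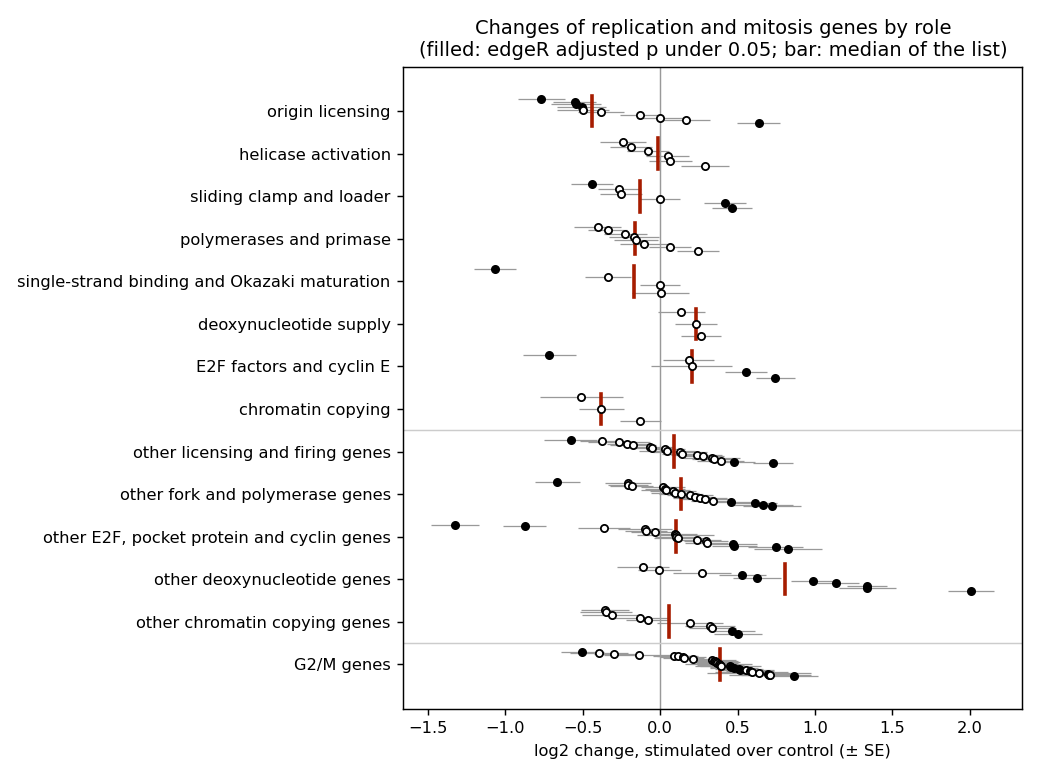
Log2 change of stimulated over control with its SE (horizontal axis) for every tested gene, by role, with the 45 members above, the 74 other replication genes in the middle and the 30 genes of G2 and mitosis at the bottom; filled points passed at an edgeR adjusted p under 0.05 and bars are medians. The median of origin licensing is -0.44, that of the other deoxynucleotide genes 0.81 and that of the G2 and mitosis genes 0.38.

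Genes of G2 and mitosis, another group that cycling cells are known to raise, are given for comparison. Of 30 tested, 8 rose (26.7%, against 17.5% of all tested genes) and 1 fell (3.33%, against 18.3%). The gene that fell was Cenpf (-0.50, named after its value was seen). Another 21 did not pass, and the median of the 30 was 0.38 against -0.13 for the members. With total-count scaling 4 rose and 2 fell, without control 1 the rises numbered 5 and without stimulated 1 they numbered 1. Over all tested genes 1934 rose and 2794 fell with total-count scaling. Top2a, the topoisomerase of condensing chromosomes, rose from 2350 and 2789 CPM to 4129 and 4214 CPM (0.70 ± 0.17, edgeR adjusted p = 0.0203). Ube2c rose by 0.86 ± 0.16 and Bub1b by 0.70 ± 0.18, and Smc4 (0.55 ± 0.18) and Mki67 (-0.14 ± 0.23) did not pass. The difference between the members and this list was not tested. Summed over the genes, the members took 1.17% and 1.16% of all counts in controls and 0.949% and 0.941% in stimulated libraries, and the G2 and mitosis genes took 0.887% and 0.942%, then 1.14% and 1.19%. These shares carry no TMM factor, unlike the changes above. With TMM factors the members summed to 11278 and 11312 CPM in controls and 10031 and 9481 CPM in stimulated libraries. The G2 and mitosis genes then summed to 8551 and 9169 CPM in controls and 12098 and 12044 CPM in stimulated libraries.

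Replication-dependent histone genes are transcribed in S phase and make RNA without a poly(A) tail. Their median difference by library number was larger than that by treatment. Of 54 tested, all 54 were higher in control 1 than in control 2, by a median of 3.48 times, and 52 were higher in stimulated 1 than in stimulated 2, by a median of 2.26 times. In the edgeR fit that has no term for the library number, 1 rose (Hist1h2ah, 3.01 ± 0.74) and 1 fell (Hist2h2be, -1.06 ± 0.26). Both are named after their values were seen. That is 1.85% each way, where 17.5% of all tested genes rose and 18.3% fell. In that fit 8 had an unadjusted edgeR p under 0.05, and 6376 of all 13838 tested genes had one. A change above 0 was found for 51, with a median of 0.63 over the 54, and for 6767 of all tested genes. Without control 1, 15 rose, and without stimulated 2, 2 rose. The most abundant were the linker histone genes Hist1h1a (612 and 252 CPM, then 1186 and 857 CPM, 1.24 ± 0.47), Hist1h1c (490 and 358 CPM, then 546 and 716 CPM, 0.57 ± 0.21) and Hist1h1e (449 and 235 CPM, then 683 and 665 CPM, 0.98 ± 0.30), none of which passed. The 45 members did not share this spread: control 1 over control 2 had a median of 0.975 and stimulated 1 over stimulated 2 a median of 1.03, and 40 of the 45 genes differed by less than 1.2 times in each group.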

How the data were processed

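RNA-seq of total RNA depleted of ribosomal RNA was read from 4 deposited gene tables. STAR, Subread and featureCounts are named, without role, in the submitters' processing notes; the build and the use of strand: not given in the sources used here. The deposited counts are whole, unnormalised reads per gene, per the file headers and values. The authors' CPM equals the count over the library sum, and the authors' RPKM is that CPM per kilobase of listed length. Both were recomputed. RPKM carries no TMM factor and served for levels per length, their sums and shares, and ratios within a library. Identifiers were matched to GENCODE M21 (40340 of 41388), whose span equals the listed one for 35 of the 45 members.

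Counts were tested with edgeR 4.0.16 in R 4.3.3 (glmQLFit, robust; filterByExpr; TMM; Benjamini-Hochberg over 13838 genes), with treatment as the only term, and the code was tested on simulated data. Printed CPM values carry the TMM factors. SE is the absolute change over the square root of F. Members and lists were chosen with earlier results of these data known. Beside the members, the text names, of each other list, the 3 genes of lowest adjusted p and the 2 of highest mean CPM that did not pass, and the 3 most abundant histone genes; 1 gene that this rule takes is not reported here. Alternatives were other scalings, filters, tests (DESeq2 1.42.0, limma-voom of limma 3.58.1, glmTreat), thresholds, a block for the number and each library left out. Depth limits low genes: Orc1 had 425 reads at least.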

Additional observations from a re-analysis of the deposited data

How the results depend on the processing

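All 12 members that rose or fell kept their direction in the 16 alternatives, and Lig1, Mcm6 and E2f2 passed in each except glmTreat against a change of 1. The number of members that rose and fell was 3 and 12 with total-count scaling, 0 and 0 with glmTreat, and 1 and 2 at an adjusted p under 0.01; 11 fell with upper-quartile scaling. Leaving out 1 library gave 2 rises each time and from 3 to 6 falls, and the median change of the members ran from -0.1496 to -0.0574 (-0.22 with total-count scaling). The same-numbered libraries deviated together from their group means (correlation 0.58 over 13838 genes), but the labels state no pairing. With 2 libraries a group the 2 pairs mirror each other, so they do not repeat each other. With the number as a replicate block, 7 members rose and 15 fell (Cdt1, Chaf1b, Mcm5, Mcm10, Pold1, Pold3, Rfc2, Rpa1, Tk1 and Uhrf1 passed in addition to the 12), 30 other replication genes rose and 10 fell, 21 genes of G2 and mitosis rose and 3 fell, 44 histone genes rose and 1 fell, and 3986 of all genes rose and 4000 fell.

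The counts of rises and falls were, for other replication genes, 10 rises with total-count scaling, 1 and 0 with glmTreat, 6 and 2 at 0.01, and 7 to 12 and 2 to 3 with 1 library left out. For G2 and mitosis they were 4 and 2 with total-count scaling, 0 and 0 with glmTreat, 1 and 0 at 0.01, 13 rises without a filter and 13 in DESeq2, and 1 to 6 and 0 to 1 with 1 library left out. For histone genes, rises were 2 with DESeq2 size factors, upper-quartile scaling, total-count scaling or a filter of 1 CPM, 6 without a filter and in DESeq2, 5 in limma-voom, 3 without robust estimation, and 1 to 15 with 1 library left out; rises and falls were 0 with glmTreat and at 0.01, and falls 0 to 1 with 1 library left out. Of all genes, 390 rose and 527 fell with glmTreat, 1244 and 1324 at 0.01, and 1593 to 2001 and 1665 to 2035 with 1 library left out. With total-count scaling 1934 of all genes rose and 2794 fell, and with upper-quartile scaling 2160 rose and 2701 fell. The cause of these shifts was not tested.

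Signs turned only for genes that did not pass. With DESeq2 size factors, and alike in DESeq2, Mcm3, Rfc5 and Dck had 0.0176, 0.0187 and 0.0124; with TMM without abundant classes 0.0119, 0.0132 and 0.0079; without a filter Mcm3 and Rfc5 had 0.0004 and 0.0015. With upper-quartile scaling Cdc45, Rpa2 and Fen1 had -0.0049, -0.0509 and -0.0470. With total-count scaling Cdc45, Gins1, Prim1, Rpa2, Fen1 and Wdhd1 had -0.0451, -0.0251, -0.0260, -0.0905, -0.0871 and -0.0137. With a filter of 1 CPM Rpa2 and Fen1 had -0.0090 and -0.0058. With 1 library left out, Mcm3 ran from -0.0633 to 0.0836, Cdc45 from -0.0265 to 0.1455, Rfc5 from -0.0407 to 0.0649, Pola2 from -0.2219 to 0.0256, Rpa2 from -0.0484 to 0.0478, Fen1 from -0.1998 to 0.2343, Ccne2 from -0.0804 to 0.5551, Rif1 from -0.0100 to 0.2755, Wdhd1 from -0.0492 to 0.2262, Dck from -0.1020 to 0.0933 and Mki67 from -0.4631 to 0.1470.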
